A study of Homo sapiens with 8 samples.

Results

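The p53, RB and MYC checkpoint genes are 9 genes that hold or release the cell cycle: MDM2, CDKN1A, GADD45A, CDKN2A, RB1, MYC, CCND1, CDK4 and CDK6. They were taken by name from the 54174 gene symbols of an RNA-seq table, and the rule uses no measured value, although earlier results of these data were known when the genes were proposed. All 9 symbols were in the table, 8 had a value in every library and passed the filter on low values, and CDKN2A was blank throughout. The cells were 143B, an established human osteosarcoma line derived from HOS cells by ras transformation. The knockout group was 4 libraries from 143B cells 48 h after transient transfection with a plasmid labelled NELL1KO, with the genotype given as NELL1 knockout. The control group was 4 libraries from 143B cells 48 h after transfection with vector plasmid, with the genotype given as control. All 8 libraries therefore share the cell line, the transfection reagent and the time. Whether a clone was selected is not given in the sources used here. Nor is the share of cells that took up or were edited by the plasmid. The series title places the study in osteosarcoma progression and in NELL-1, a secreted matrix protein.

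The p53 protein stops the cell cycle after damage. It switches on CDKN1A, whose product p21 inhibits cyclin-dependent kinases, GADD45A, a stress-induced growth arrest gene, and MDM2, the ligase that in turn destroys p53. The RB1 protein holds E2F transcription factors silent until cyclin D1 (CCND1) with CDK4 or CDK6, and then cyclin E with CDK2, phosphorylate it. CDKN2A encodes p16, which inhibits CDK4 and CDK6, and ARF, which restrains MDM2. MYC is a transcription factor that drives growth genes and is opposed by the MXD proteins. Osteosarcoma is known for damage to the p53 and RB pathways, and HOS-derived lines for loss of CDKN2A.

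Promoter sequences are shown for CDKN1A, the 1 member that passed the test, for CDK4, the member with E-boxes, and for E2F1, E2F2 and CDC25A, called genes of the RB pathway with an E2F motif in their single window. Each is the 250 bases before a RefSeq transcription start on GRCh38.p14, written 5′ to 3′ on the gene's strand. Motifs were searched on both strands: the E-box CACGTG, bound by MYC with MAX; an E2F motif read as TTTCCCGC, TTTGGCGC, TTTCGCGC or TTTGCCGC; and, for CDKN1A, the GC box GGGCGG. Of 35116 promoter windows of the same length, 6.34% held the E-box, 2.79% the E2F motif and 42.6% the GC box. Capitals mark GC boxes in CDKN1A, E-boxes in CDK4 and E2F motifs in E2F1, E2F2 and CDC25A.
CDKN1A, chr6:36678464-36678713, plus strand: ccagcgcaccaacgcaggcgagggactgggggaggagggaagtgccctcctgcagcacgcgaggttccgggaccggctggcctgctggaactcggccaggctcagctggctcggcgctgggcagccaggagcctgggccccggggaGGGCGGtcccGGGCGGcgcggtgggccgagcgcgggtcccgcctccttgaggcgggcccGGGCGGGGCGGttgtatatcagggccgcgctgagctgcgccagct
CDK4, chr12:57752311-57752560, minus strand: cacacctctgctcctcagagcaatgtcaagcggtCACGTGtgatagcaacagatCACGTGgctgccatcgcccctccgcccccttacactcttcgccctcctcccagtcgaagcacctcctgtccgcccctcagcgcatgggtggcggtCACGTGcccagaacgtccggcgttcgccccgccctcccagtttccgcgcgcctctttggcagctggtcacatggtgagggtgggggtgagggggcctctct
E2F1, chr20:33686386-33686635, minus strand: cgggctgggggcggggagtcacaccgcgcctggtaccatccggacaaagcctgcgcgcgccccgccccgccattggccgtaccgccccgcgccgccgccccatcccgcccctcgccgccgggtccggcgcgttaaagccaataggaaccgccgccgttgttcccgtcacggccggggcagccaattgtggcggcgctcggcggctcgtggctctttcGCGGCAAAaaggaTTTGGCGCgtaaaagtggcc
E2F2, chr1:23531234-23531483, minus strand: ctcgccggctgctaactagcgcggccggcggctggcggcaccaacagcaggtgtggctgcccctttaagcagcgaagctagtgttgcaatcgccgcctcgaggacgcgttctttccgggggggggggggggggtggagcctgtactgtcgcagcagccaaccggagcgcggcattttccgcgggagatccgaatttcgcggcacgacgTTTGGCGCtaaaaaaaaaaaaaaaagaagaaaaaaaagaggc
CDC25A, chr3:48188418-48188667, minus strand: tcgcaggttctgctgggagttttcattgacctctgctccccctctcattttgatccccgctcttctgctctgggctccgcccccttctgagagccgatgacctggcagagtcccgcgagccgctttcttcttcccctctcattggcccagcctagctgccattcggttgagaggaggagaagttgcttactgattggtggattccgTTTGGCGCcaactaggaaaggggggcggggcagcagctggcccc
The CDKN1A window held 4 GC boxes, the last pair overlapping, and neither of the other motifs. The CDK4 window held 3 E-boxes, which began 216, 196 and 101 bases before the start. It was the only one among the windows of the 6 members with a table entry that held an E-box, and MDM2 was the only one that held the E2F motif. The single RB1 window, chr13:48476200-48476449, lies inside the gene, which spans 48303751 to 48481890 on the plus strand. The single CDKN1A window likewise lies inside its gene, which spans 36676463 to 36687332 on the plus strand. The promoters at the upstream ends of RB1 and CDKN1A were therefore not searched. Among RB pathway genes with a window, 4 of the 6 that passed the test below held the E2F motif, and 3 of the 11 that did not pass held it. Beside those shown, these were CDK1, called, with the motif in 1 of its windows, and RBL1, E2F3 and TFDP1, not called. A match is a description of letters and not a measured binding site.

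Several facts of the series bear on every value below. The deposited values are on a log2 scale, with the same mean, quartiles, lowest and highest value in every library, so each difference is relative to the rest of the transcriptome. The targeted gene did not check the labels: NELL1 had a control mean of -5.87 ± 1.29 (SD, n = 4) and a knockout mean of -5.88 ± 1.07 (SD, n = 3), near the bottom of the range, with 1 knockout cell blank. The exact two-sided permutation test of that difference gave p = 1 (smallest possible 0.0286). The knockout libraries fell into close pairs: the SD over genes of the difference between libraries was 0.12 and 0.13 within knockout 1-2 and within knockout 3-4, and 0.46 to 0.50 between those pairs. Knockout and control libraries differed by 0.36 to 0.45 on the same measure, and control libraries by 0.10 to 0.29 among themselves, control 3 lying farthest from controls 1 and 2 (0.288 and 0.274). Results are therefore given over all 8 libraries and, where they differ, within replicates 1-2 and within replicates 3-4. Among markers, 4 of 8 mesenchymal and osteoblast genes passed the filter, with VIM the highest, while RUNX2, ALPL, COL1A1 and COL1A2 were under it. All 4 endothelial and all 5 blood markers were under the filter, 4 of the blood markers blank, and of 5 epithelial markers EPCAM alone passed.

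Of the 9 checkpoint genes, CDKN1A alone differed between knockout and control libraries by the test, and it fell to about 52.4% of its control level. The other 7 measured members showed no called difference: MDM2, RB1, CCND1, CDK4 and CDK6 stayed within 0.13 log2 units of control on average. GADD45A and MYC had wide spreads among the knockout libraries, where knockout 1-2 and knockout 3-4 lay apart. The controls of GADD45A varied widely too: 88.7% of tested genes had a smaller control SD, and 76.9% a smaller knockout SD. The test was limma's moderated test over 9016 genes, with Benjamini-Hochberg adjustment over all of them and a threshold of 0.05. It called 13.1% of all tested genes, 7.02% higher and 6.1% lower in the knockouts. With 1 of 8 members called, the members' share was near that background, so their number is no result about them as a group. For scale, the difference of CDKN1A ranked 93 of 9016 by absolute size, and that of MDM2 ranked 8218.

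**Figure D1:**
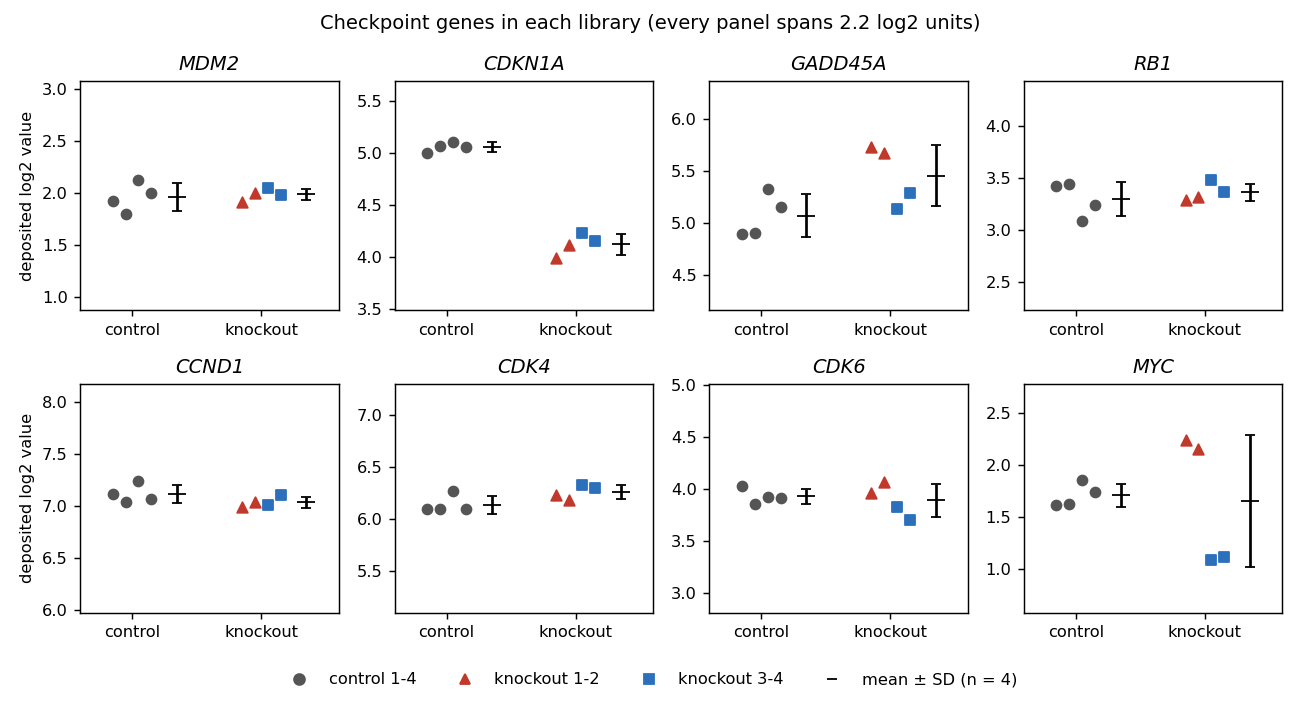
Deposited log2 value of 8 checkpoint genes in each library, with the group mean ± SD (n = 4) at the right of each group and the same axis span in every panel. CDKN1A lies between 3.99 and 4.23 in the knockouts and between 4.99 and 5.10 in the controls, while MYC splits into 2.16 to 2.25 in knockout 1-2 and 1.09 to 1.12 in knockout 3-4.

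CDKN1A encodes p21, the inhibitor of cyclin-dependent kinases that p53 induces. On the log2 scale, controls 1 to 4 stood at 4.99, 5.07, 5.10 and 5.05, and knockouts 1 to 4 at 3.99, 4.11, 4.23 and 4.15. Every knockout library was below every control, and the gap between the groups was wider than the spread inside either. The control mean was 5.05 ± 0.04 and the knockout mean 4.12 ± 0.10 (SD, n = 4 each). The log2 fold change was -0.93, with an SE of 0.07 (limma adjusted p = 0.00079). Such a complete separation downwards was seen in 10.4% of tested genes. The exact two-sided permutation test gave p = 0.0286, the smallest that 4 against 4 libraries allow. The fall was -0.98 within replicates 1-2 and -0.88 within replicates 3-4, with limma adjusted p of 9.59e-05 and 0.000504 in fits that called 59.7% and 33.1% of all genes. With the replicate number as a block, a fit that called 10.2% of genes, it was called as well (limma adjusted p = 0.00849). With each knockout pair averaged to 1 library, a setting in which 1.2% of genes were called, it was called too (limma adjusted p = 0.0235). By SD, CDKN1A was a quiet gene among controls: 12.8% of tested genes varied less there. CDKN1A lies on chromosome 6 (GRCh38.p14, 36676463 to 36687332).

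MDM2, the ubiquitin ligase that targets p53, is switched on by p53 through the same kind of response element as CDKN1A. Its log2 value was 1.93, 1.80, 2.13 and 2.00 in the controls and 1.92, 2.00, 2.05 and 1.99 in the knockouts. The knockout values all lay inside the control range. The difference was 0.026 with a 95% interval of -0.16 to 0.21 (limma adjusted p = 0.865), so a change as large as that of CDKN1A lies outside its interval. Within replicates 1-2 it was 0.096 and within replicates 3-4 -0.045, neither called (limma adjusted p = 0.231 and 0.733). GADD45A, a growth arrest gene induced by stress, was 4.90, 4.91, 5.32 and 5.15 in the controls and 5.73, 5.67, 5.13 and 5.28 in the knockouts. Knockout 1-2 were above every control, and knockout 3-4 were inside the control range. Over all 8 libraries the difference was 0.38, with an interval of 0.025 to 0.74 (limma adjusted p = 0.143). Within replicates 1-2 the difference was 0.80 (limma adjusted p = 9.59e-05), and within replicates 3-4 it was -0.030 (limma adjusted p = 0.840). Controls 1 and 2 were the lowest controls for this gene, and whether the sets differed in the effect was not tested. GADD45B, the tested relative of GADD45A, likewise differed by 0.58 in replicates 1-2 and by -0.32 in replicates 3-4, and GADD45G was under the filter.

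CDKN2A, which encodes p16 and ARF, was blank in all 8 libraries. Its neighbours, looked up after this was seen, followed suit on either side. MTAP, the nearest protein-coding gene before it on chromosome 9 and an enzyme of adenine salvage, was blank in all 8, and so was CDKN2B, the nearest gene after it, which encodes the related inhibitor p15. On GRCh38.p14 these 3 genes span 21802636 to 22009313. The next gene outward on the far side, DMRTA1 at 22446824 to 22455740, had a value in all 8 libraries, from -0.079 to 0.65. On the near side IFNE at 21480839 to 21482313 had low values in 7 libraries. Among 19013 protein-coding symbols of the table, 15.5% were blank throughout. The rule that left a cell blank is not given in the sources used here, so a blank is read neither as 0 nor as a measured absence. Since control and knockout libraries were alike in this, CDKN2A gives no comparison.

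**Figure D2:**
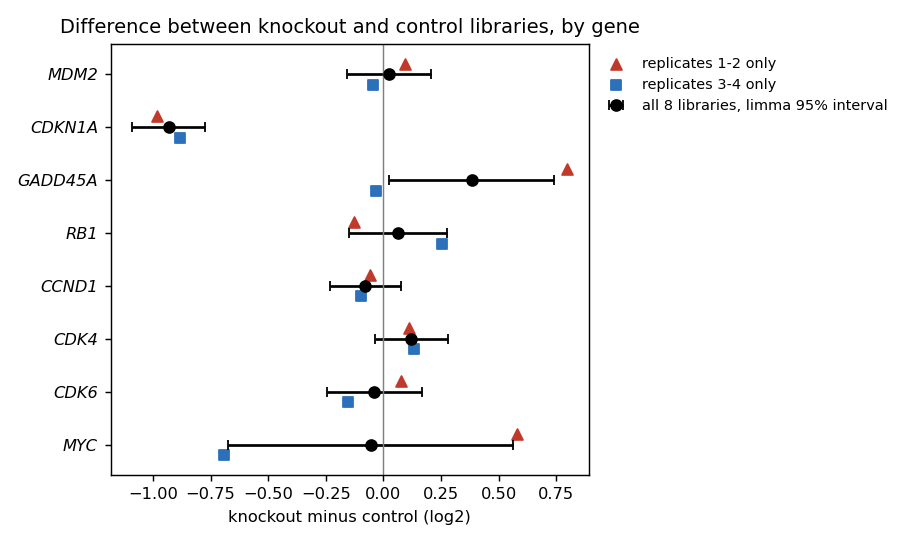
Knockout minus control difference (log2) of 8 checkpoint genes: black points with bars are the limma estimate over all 8 libraries with its 95% interval, triangles the difference within replicates 1-2 and squares that within replicates 3-4. The CDKN1A interval lies wholly below 0 and its sets sit together, whereas the MYC sets lie at 0.58 and -0.69 on opposite sides of 0.

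Of 13 regulators of p53, all tested, 1 rose, none fell and 12 were not called. The share called was 7.69%, beside 13.1% over all tested genes, with a median difference of -0.087 beside 0.0072 over all tested genes. The one that rose was CHEK1, the damage checkpoint kinase, from 2.58 ± 0.01 to 2.87 ± 0.09 (SD, n = 4 each; log2 fold change 0.29, limma adjusted p = 0.0242). It was not called with the replicate block (limma adjusted p = 0.0620), with knockout pairs averaged (0.131) or within replicates 3-4 (0.0654), nor without control 1, 2 or 4 or knockout 1 or 3 (limma adjusted p = 0.0504 to 0.0784).

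Of 29 further p53 target genes, 20 passed the filter, of which 3 rose, 2 fell and 15 were not called. The share called was 25%, beside 13.1% over all tested genes (7.02% higher and 6.1% lower). The median difference of those tested was 0.011. BBC3, which encodes the death factor PUMA, fell from 2.31 ± 0.12 to 1.57 ± 0.37 (SD, n = 4 each; log2 fold change -0.74, limma adjusted p = 0.0258). Without control 1, 2 or 4 or knockout 3 it was not called (limma adjusted p = 0.0620 to 0.0836). TNFRSF10B, the death receptor for TRAIL, fell by 0.36 (limma adjusted p = 0.0103). PLK2, a polo-like kinase, rose from 2.83 ± 0.42 to 4.06 ± 0.39 (log2 fold change 1.23, limma adjusted p = 0.0165). Its rise was 1.92 in replicates 1-2 and 0.54 in replicates 3-4, and it was not called with the replicate block (limma adjusted p = 0.0538) or without control 1 or control 2 (0.0569 and 0.0549). RPS27L, a ribosomal protein relative induced by p53, rose by 0.57, and FDXR, ferredoxin reductase, rose by 0.50 (limma adjusted p = 0.00694 and 0.00696). Beside the fall of CDKN1A, other p53 targets were thus found both higher and lower. With knockout pairs averaged, these 5 genes were not called (limma adjusted p of 0.0663 or higher). Without control 1 or control 2, 3 were called. With no filter on low values, 28 genes of the list were tested, with 3 called higher and 4 called lower.

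**Figure D3:**
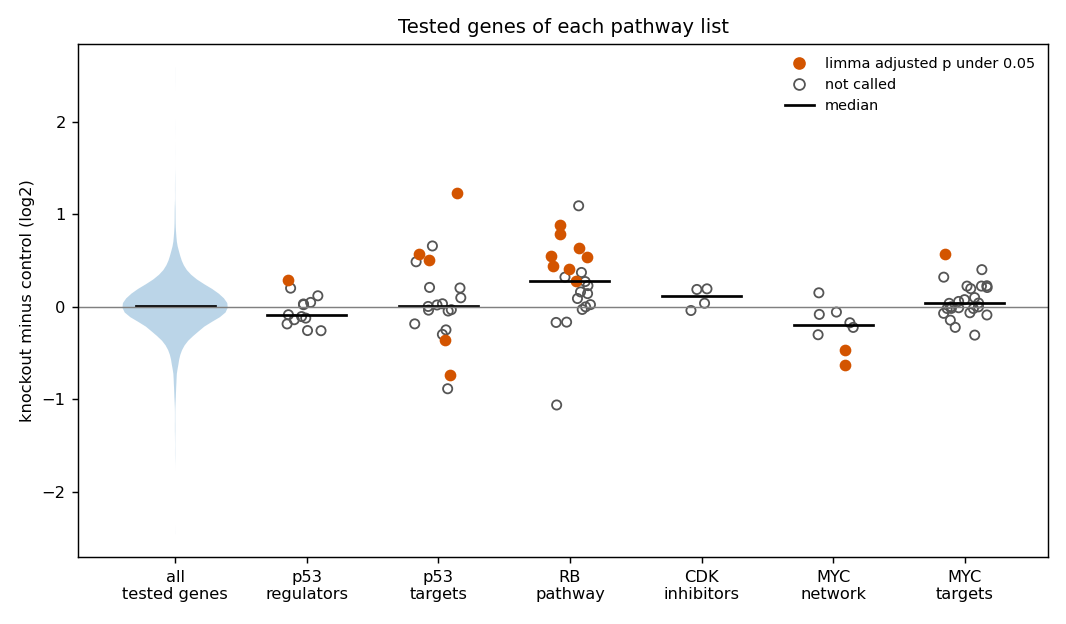
Knockout minus control difference (log2) of each tested gene, by pathway list, with the distribution of all tested genes at the left; filled points passed limma adjusted p under 0.05 and bars are medians. The RB pathway list holds 8 called genes, all above 0, and its median is 0.28.

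Among the members of the RB pathway itself, no difference was called. RB1, the pocket protein that restrains E2F, was 3.42, 3.45, 3.09 and 3.25 in the controls and 3.30, 3.32, 3.48 and 3.37 in the knockouts. Knockout 3 lay above every control and the other knockouts lay inside the control range. The difference was 0.063 (95% interval -0.15 to 0.28, limma adjusted p = 0.691). It was -0.13 within replicates 1-2 and 0.25 within replicates 3-4, neither called (limma adjusted p = 0.0556 and 0.0738). CCND1, cyclin D1, was 7.11, 7.04, 7.24 and 7.07 in the controls and 6.99, 7.04, 7.01 and 7.11 in the knockouts, a difference of -0.078 (interval -0.23 to 0.075, limma adjusted p = 0.480). The groups overlapped, and among tested genes 8.17% varied less between knockout libraries than CCND1.

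The partner kinases of cyclin D1 gave values as close. CDK4 was 6.09, 6.10, 6.27 and 6.09 in the controls and 6.23, 6.19, 6.33 and 6.30 in the knockouts. All knockout values were above controls 1, 2 and 4, and control 3 lay among them. The difference was 0.12 (interval -0.036 to 0.28, limma adjusted p = 0.279), and it was 0.11 and 0.13 within the replicate sets. CDK6 was 4.03, 3.86, 3.93 and 3.92 in the controls and 3.97, 4.07, 3.83 and 3.71 in the knockouts, a difference of -0.039 (interval -0.24 to 0.17, limma adjusted p = 0.809). The CDK6 groups overlapped, and its differences within replicates 1-2 and 3-4 were 0.076 and -0.15, neither called (limma adjusted p = 0.400 and 0.207). For the 7 measured members other than CDKN1A, exact two-sided permutation tests gave unadjusted p from 0.0857 to 0.83.

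Genes that act with or after these members in the pathway were then counted. Of 22 other RB pathway genes, all of which passed the filter, 8 rose, none fell and 14 were not called. The share called was 36.4%, beside 13.1% over all tested genes, and the median difference was 0.28 beside 0.0072. The 8 were the factors E2F1 and E2F2, cyclins CCNE1 and CCNE2, the kinases CDK1 and CDK2, the phosphatase CDC25A and SKP2. E2F2 went from 0.88 ± 0.23 to 1.76 ± 0.19 (SD, n = 4 each), which is 0.89 log2 units with an SE of 0.14 (limma adjusted p = 0.00673). SKP2, the ubiquitin ligase subunit that marks the inhibitors p27 and p21 for destruction, rose from 3.06 ± 0.19 to 3.85 ± 0.11 (log2 fold change 0.79, limma adjusted p = 0.00417). CDC25A, which removes inhibitory phosphates from CDK2, rose from 3.73 ± 0.20 to 4.36 ± 0.04 (log2 fold change 0.63, limma adjusted p = 0.00705).

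The 5 further called genes of this list are named because they complete the count. CCNE1 and CCNE2, the cyclins that activate CDK2, rose by 0.55 and 0.54. CDK1 and CDK2, the kinases of mitotic entry and S phase, rose by 0.44 and 0.40, and E2F1 rose by 0.28. In each of these 8 genes all knockout libraries were above all controls, as for 12.5% of tested genes, and the difference was positive in both replicate sets. The 8 were picked by their call in these same libraries, so the separation and the signs are not separate support for it. E2F8, an atypical E2F chosen after its values were seen, had a difference of 1.09 that was not called (limma adjusted p = 0.056). It was called with the replicate block (limma adjusted p = 0.0215), and without control 3 or knockout 1 (0.0363 and 0.0403). E2F5, also chosen after its values were seen, had the largest fall of the list, -1.06, which was not called (limma adjusted p = 0.128). Its differences were -0.46 in replicates 1-2 and -1.67 in replicates 3-4, and it was not called with the block (limma adjusted p = 0.0622). With the block E2F1 was not called (limma adjusted p = 0.054), and the count stayed at 8.

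Several limits bear on that count. With each knockout pair averaged only CCNE2 was called (limma adjusted p = 0.0487), in a setting that called 1.2% of all genes. Without control 1, control 2, control 4 or knockout 3 the count was 4. CCNE1, CDK1, CDK2 and E2F1 were each called in only 2 or 3 of the 8 fits that left out 1 library, with limma adjusted p of 0.0513 to 0.116 in the others, while E2F2, SKP2, CDC25A and CCNE2 were called in all 8. The libraries that ended such calls were control 1, 2 or 4 or knockout 3 for all 4 of them, knockout 2 for CCNE1 and E2F1, and knockout 4 for CCNE1, CDK1 and CDK2. With no filter on low values CDK1 and CDK2 were not called (limma adjusted p = 0.0541 and 0.0641). The 8 genes were read in the same libraries and are not independent observations.

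**Figure D4:**
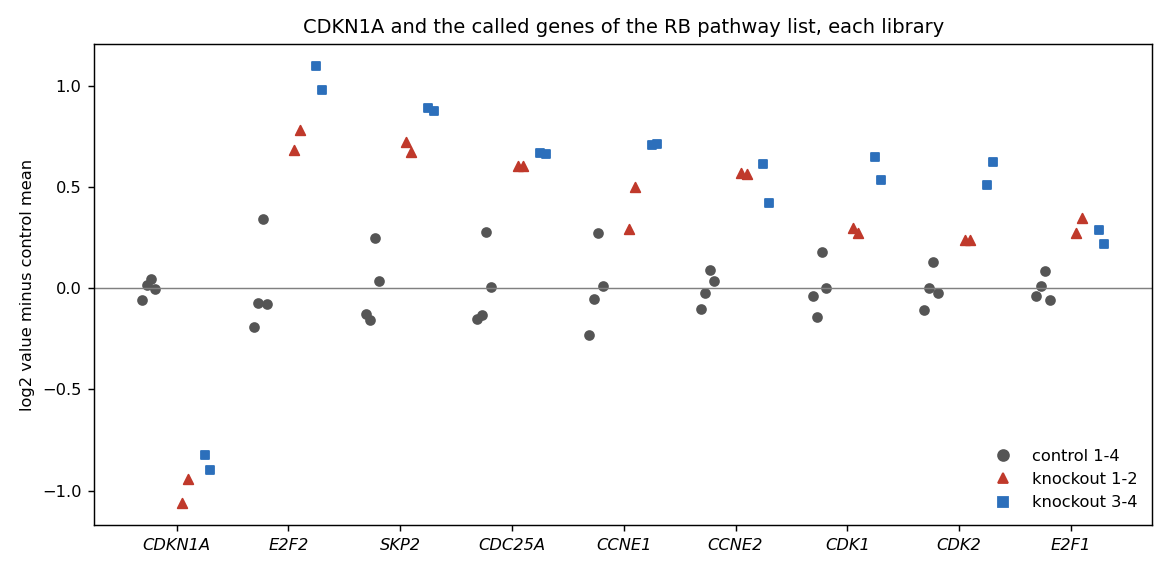
Each library's log2 value minus the control mean, for CDKN1A and for the 8 called genes of the RB pathway list. Knockout libraries lie below all controls for CDKN1A and above all controls for each of the other genes, with log2 fold changes of 0.28 to 0.89.

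Of 6 other inhibitors of cyclin-dependent kinases, 4 passed the filter and none was called by limma in either direction, with 0 at an unadjusted p under 0.05. CDKN1B, which encodes p27, ranged from 3.37 to 3.49 across controls and from 3.22 to 3.51 across knockouts, a difference of -0.041 (limma adjusted p = 0.764). The difference between CDKN1A and CDKN1B was not itself tested.

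MYC gave no common difference over the 8 libraries: its knockout libraries lay on either side of the controls. Its log2 value was 1.62, 1.63, 1.86 and 1.74 in the controls and 2.25, 2.16, 1.09 and 1.12 in the knockouts. Knockout 1-2 were above every control and knockout 3-4 were below every control. The means were 1.71 ± 0.11 and 1.66 ± 0.63 (SD, n = 4 each), a difference of -0.055 with an interval of -0.68 to 0.57 (limma adjusted p = 0.915). By SD between knockout libraries, 96.9% of tested genes varied less than MYC. Within replicates 1-2 the difference was 0.58 (limma adjusted p = 0.000307) and within replicates 3-4 it was -0.69 (limma adjusted p = 0.00134). These fits called 59.7% and 33.1% of all genes. Differences of at least 0.5 in size and opposite in direction between the sets were seen in 0.665% of tested genes. A call in both sets with opposite directions was seen in 7.13%. Each set holds 2 libraries of each group, and the interaction was not tested.

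By direction alone, most listed target genes of MYC, mainly genes of ribosome building and metabolism, were split along the same line. Of 26, 25 passed the filter. Over all 8 libraries SRM, spermidine synthase, rose by 0.57 (limma adjusted p = 0.0112) and the other 24 were not called, with a median difference of 0.036. The share called was 4%, beside 13.1% over all tested genes. SRM was not called with knockout pairs averaged (limma adjusted p = 0.0860). Without control 3 or knockout 3, 2 genes of the list were called. Within replicates 1-2, where MYC was higher in the knockouts, 20 of the 25 had a positive difference, or 80% beside 54.0% of all tested genes, with a median of 0.18. Within replicates 3-4, where MYC was lower, 18 of the 25 had a negative difference, or 72% beside 50.3% of all tested genes, with a median of -0.061. In that set 5 of the 25 were called lower and 2 higher, beside 1570 and 1417 of 9016 tested genes. The share called lower there was near that over all genes. Within replicates 1-2, 15 of the 25 were called higher and 2 lower, beside 2978 and 2402 of all tested genes. A positive difference in replicates 1-2 with a negative one in replicates 3-4 was seen in 16 of the 25, or 64%, beside 23.7% of all tested genes. These shares describe a chosen list and were not tested. ODC1, ornithine decarboxylase and the enzyme before SRM in polyamine synthesis, was 6.13 and 6.03 in knockout 1-2 against 5.63 and 5.73 in controls 1-2, but 5.55 and 5.49 in knockout 3-4 against 5.41 and 5.65 in controls 3-4. CAD, an enzyme of pyrimidine synthesis, went the other way, with differences of -0.094 and 0.51. Both were chosen after their values were seen.

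**Figure D5:**
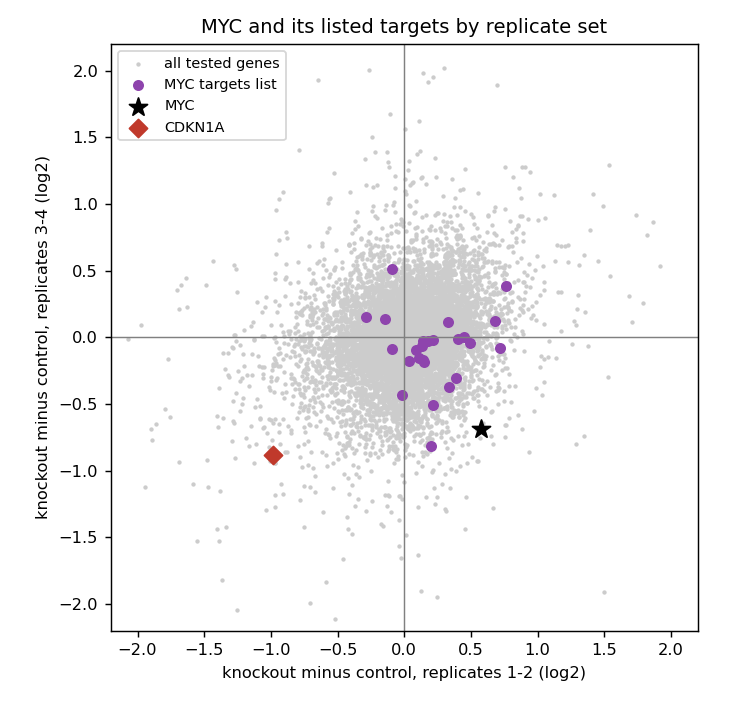
Knockout minus control difference (log2) within replicates 1-2 (x axis) and within replicates 3-4 (y axis), for all tested genes (grey; 11 lie outside the axes), the 25 tested genes of the MYC target list, MYC and CDKN1A. MYC and 16 of its listed targets lie at the lower right, and CDKN1A lies low on both axes.

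Of 14 MYC network genes, most of them relatives, partners or rivals of MYC, 8 passed the filter. Of these, 2 fell and none rose, beside 6.1% of all tested genes called lower and 7.02% called higher. Both that fell encode repressors that compete with MYC for MAX. MXD4 fell from 1.98 ± 0.19 to 1.34 ± 0.07 (SD, n = 4 each; log2 fold change -0.64, limma adjusted p = 0.00717), with the groups apart. MXI1, named as the other of the pair although its groups overlapped, fell by 0.47 (limma adjusted p = 0.0382). Both differences were negative in both replicate sets, at -0.83 and -0.44 for MXD4 and -0.40 and -0.54 for MXI1. MAX, the obligate partner of MYC, differed by 0.15 and was not called (limma adjusted p = 0.144). With knockout pairs averaged neither MXD4 nor MXI1 was called, with limma adjusted p of 0.0743 and 0.155. Without control 1, 2 or 4, or knockout 2, 3 or 4, MXI1 was not called (limma adjusted p = 0.0514 to 0.116), nor with no filter on low values (0.0620), and MXD4 alone of the network was called when 1 of those libraries was left out.

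The genes most like each member were ranked by Pearson's r of log2 values over the 8 libraries, as a description. The libraries share their group and their replicate set, and how much of the likeness this sets was not tested. For CDKN1A the closest were COL6A2, a collagen VI chain, and PHC2, a Polycomb subunit, at r = 0.996 and 0.993, and 110 tested genes had r above 0.95. For MYC they were UTP23, a factor of ribosomal RNA processing, and GRPEL1, a mitochondrial import factor, at r = 0.996 and 0.995, with 155 genes above 0.95. For GADD45A they were CALD1, caldesmon, and PFDN1, a prefoldin subunit, at r = 0.989 and 0.985. CCND1 had no gene above 0.95, its closest being the protease gene CTSD at r = 0.931. For MDM2 the closest was CYLD at r = 0.975, for RB1 MAN2B1 at r = 0.977, for CDK4 METTL26 at r = 0.977 and for CDK6 RBPJ at r = 0.980.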

How the data were processed

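RNA was measured in 8 libraries of a human cell line, 4 labelled NELL1 knockout and 4 vector control, with TRIzol extraction and a stranded total-RNA kit per the labels' protocols. The deposited table gives 1 log2 value per gene symbol and library. Base 2 was inferred from the range of -10.48 to 12.13, and quantile normalization by the authors was inferred from the deposited log2 values, whose mean, quartiles, lowest and highest value are equal in all libraries. Partek 7.0, bcl2fastq and GRCh38 are named in the submitters' processing notes, with no role; the aligner, the counter, the annotation and the unit before the logarithm are not given in the sources used here. Gene length is then unknown to the values, so levels of different genes are not compared. The table holds no counts, so depth is unknown, and precision rests on the spread between libraries. A library had a value for 14911 to 15171 symbols.

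Columns were matched to samples by description label and groups taken from titles. limma 3.58.1 in R 4.3.3 (lmFit, eBayes without trend, no covariate) was fitted to 9016 genes, those measured in all 8 libraries whose log2 values averaged at least 1. The fit was tested on simulated data. Intervals are limma's, at 95%, unadjusted. The series design calls the replicates biological but does not name separate cultures, so p-values measure the spread between these libraries, which may be technical. The members and lists were chosen with earlier results of these data known, and the lists were written from general knowledge. Named genes were all members and, per list, up to 3 called genes in each direction with the largest change and groups that did not overlap; others are marked as chosen after their values were seen. Same-numbered control and knockout libraries deviated together (r across genes 0.24, 0.27, 0.29 and 0.20), and the number was fitted as a block as an alternative. Differently numbered libraries of the same replicate set gave 0.11 to 0.32, a range that holds those values. A pairing by number was therefore not told apart from the replicate set. Alternatives covered filters, scaling, a pseudocount of 1, a variance trend, terms for the replicates and leaving out libraries. Promoter sequences and gene positions came from RefSeq (GRCh38.p14); 6 of 9 members had a promoter entry.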

Additional observations from a re-analysis of the deposited data

Results flagged for a closer look

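The 4 values of each group were checked for a library far from the rest. The check covered 33 genes, the 8 measured members and other tested genes named in the text, E2F5 not among them. Such a gap arises by chance in about 1 of 20 groups, and 4 were found in 66 groups. CDK4 was 6.27 in control library 3 and 6.09 to 6.10 in the other controls. CDKN1B was 3.49 in control library 1 and 3.37 to 3.38 in the other controls. MXI1 was 3.17 in control library 3 and 3.54 to 3.58 in the other controls. SRM was 5.12 in knockout library 3 and 5.29 to 5.32 in the other knockouts.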

How the results depend on the processing

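CDKN1A was lower in the knockouts and called by limma in all 19 alternatives, with log2 fold changes of -0.98 to -0.88 and limma adjusted p of 9.59e-05 to 0.0235. The count of called members was 1 in 17 alternatives, 3 in replicates 1-2 alone and 2 in replicates 3-4 alone. The count over all genes (1183) was 729 with a mean of at least 3, 2274 with a term for replicates 1-2 against 3-4, 108 with knockout pairs averaged, 5380 in replicates 1-2 alone, 2987 in replicates 3-4 alone and 391 to 1353 when 1 library was left out. The count over the pathway lists (17) was 10 with a mean of at least 3, 1 with knockout pairs averaged, 60 and 38 within the replicate sets, and 9 to 20 when 1 library was left out. With the replicate block the counts were 924 genes, 1 member and 16 pathway genes; the block ended the calls of CHEK1, PLK2 and E2F1, added that of E2F8 and changed no other call among the members and the tested list genes named in the text. Differences of uncalled members changed sign in the sets: MDM2 (-0.045) and GADD45A (-0.030) in replicates 3-4, and RB1 (-0.13), MYC (0.58) and CDK6 (0.076) in replicates 1-2. Among other named genes that were not called, the same held for CDKN1B (0.087), GADD45B (-0.32), ODC1 (-0.0097) and GDF15 (-0.065) in replicates 3-4 and for CAD (-0.094) and SESN2 (0.13) in replicates 1-2. When 1 library was left out they ranged from -0.029 to 0.080 for MDM2, -0.0064 to 0.11 for RB1, -0.25 to 0.13 for MYC, -0.099 to 0.023 for CDK6, -0.090 to 0.0067 for CDKN1B and -0.048 to 0.31 for GADD45B; the cause was not tested. With the blank NELL1 cell set to the lowest value the difference was -1.16 (exact permutation p = 0.543). The filter, scaling, pseudocount and variance-trend alternatives turned no member's direction. Depth is unknown, so no floor can be given for CDKN2A.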

Other observations

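CDKN2C, which encodes the CDK4 and CDK6 inhibitor p18, was left out of the main test by the filter on low values. With no filter on low values, 5 genes of the CDK inhibitor list were tested, CDKN2C among them, and none was called in either direction. Its log2 value was -0.40, -0.27, 0.82 and 0.32 in the controls and 0.79, 0.91, 1.79 and 1.72 in the knockouts. Within each same-numbered pair the knockout library was the higher, and knockout 1-2 lay beside control 3. Among p53 targets that were not called, GDF15, a stress-induced secreted factor, was 5.07 and 5.14 in knockout 1-2 and 3.69 to 3.81 in the other 6 libraries. SESN2, a sestrin induced by stress, was 0.56 and 0.95 in knockout 3-4 and 2.58 to 2.96 in the other 6 libraries. All 3 genes were chosen after their values were seen.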
